A study of Ovis aries with 16 samples.

Results

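Prohormone convertase 1 (PC1, gene symbol PCSK1) and carboxypeptidase E (CPE) are the enzymes that turn inactive peptide precursors into hormones and neuropeptides. They were followed in the hypothalamus of 16 late-gestation fetal sheep. Every non-control probe annotated as PC1 or CPE was taken, which gave 3 of 15008 distinct probes: 1 for PC1 and 2 for CPE, or 2 genes of 979 named on the array. The rule goes by annotation alone, though these genes were proposed with earlier results of the same data known.

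Peptide hormones are made as long precursors that enter the secretory granules of neurons and endocrine cells. PC1 is an endoprotease that cuts the precursor after pairs of basic residues, and CPE then trims the basic residues from the exposed carboxyl end. In the hypothalamus the precursors handled by this route include proopiomelanocortin (POMC), and those of neuropeptide Y (NPY), somatostatin (SST) and oxytocin (OXT).

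The study asked how a short interruption of blood flow to the fetal head altered hypothalamic transcripts, and whether estradiol given beforehand changed that response. The brachiocephalic artery, which supplies the head and forelimbs, was closed for 10 min (brachiocephalic occlusion, BCO) or only sham-occluded. There were 4 groups of 4 chronically catheterized fetuses: estradiol+BCO (250 ug estradiol per day for 5 days, then occlusion), estradiol (the same dose, sham), BCO (occlusion alone) and control (untreated, sham). Gestation stood at 124 to 128 days, with term at 147, and the hypothalamus was taken 1 h after the occlusion or sham began. All of them carried catheters and had blood drawn. Each fetus gave 1 array, so replicate error here is the spread between fetuses.

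The probes are 60 bases long, and their letters are shown because the reading of CPE depends on them. The array carries 1 spot of each. The CPE probes are named by the base of their source mRNA at which they start. They overlap over 59 of 60 bases, so they read the same stretch of transcript and are not independent; the capital in each marks the base that the other lacks. The PC1 probe covers bases 253 to 312 of its own source mRNA and has no capital.
PC1: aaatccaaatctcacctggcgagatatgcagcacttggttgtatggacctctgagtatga
CPE from base 184: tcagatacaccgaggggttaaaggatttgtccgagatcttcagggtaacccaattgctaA
CPE from base 183: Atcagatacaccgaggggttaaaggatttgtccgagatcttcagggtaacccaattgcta
Each of the 3 probes contains 45.0% G and C. Apart from the CPE pair, no other probe on the array shared a run of 20 bases with any of them. Both source mRNAs are annotated as partial coding sequences, so the values describe these stretches and not particular isoforms.

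Values below are log2 processed signal minus the 75th percentile of the same array, so 0 is the level of that percentile and a difference of 1 is a doubling. That percentile lay at 2047.5 to 2938.6 signal units, and 77.27% to 86.45% of probes per array were well above background. The arrays lay on 2 slides, with replicates 1 and 2 of every group on slide 1 and replicates 3 and 4 on slide 2. In a limma fit of slide together with group, 761 probes were higher and 98 lower on slide 2 at an adjusted p under 0.05. PC1 and CPE were not among them: slide 2 minus slide 1 was -0.28 for PC1 (limma adjusted p = 0.361), and for CPE it was -0.12 from base 184 and -0.18 from base 183 (adjusted p = 0.438 and 0.243). Of 6 measured markers of hypothalamic neurons, 5 were well above background in every group, and NR5A1, a transcription factor of the ventromedial nucleus, lay below that mark on all BCO arrays. Of 7 measured anterior pituitary markers, 5 were well above background on at least 4 arrays, GNRHR on 2 arrays and POU1F1 on 0. The share of pituitary tissue in the samples was not tested.

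PC1, the enzyme of the first cut, was lower on every occluded array than on every sham array. The estradiol+BCO arrays read -2.36, -2.45, -3.51 and -2.38 on the log2 scale, and the estradiol arrays -2.13, -1.54, -1.74 and -2.05. BCO arrays read -2.56, -2.46, -2.38 and -3.12, and control arrays -1.91, -1.95, -2.23 and -2.20. The highest occluded array lay 0.12 below the lowest sham array, and the lowest values were estradiol+BCO replicate 3 and BCO replicate 4. In signal units, the 8 occluded arrays ran from 208.9 through a median of 417.5 to 487.8, and the 8 sham arrays from 519.2 through 577.9 to 786.5. The PC1 probe was well above background on all 16 arrays and saturated on 0.

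**Figure D1:**
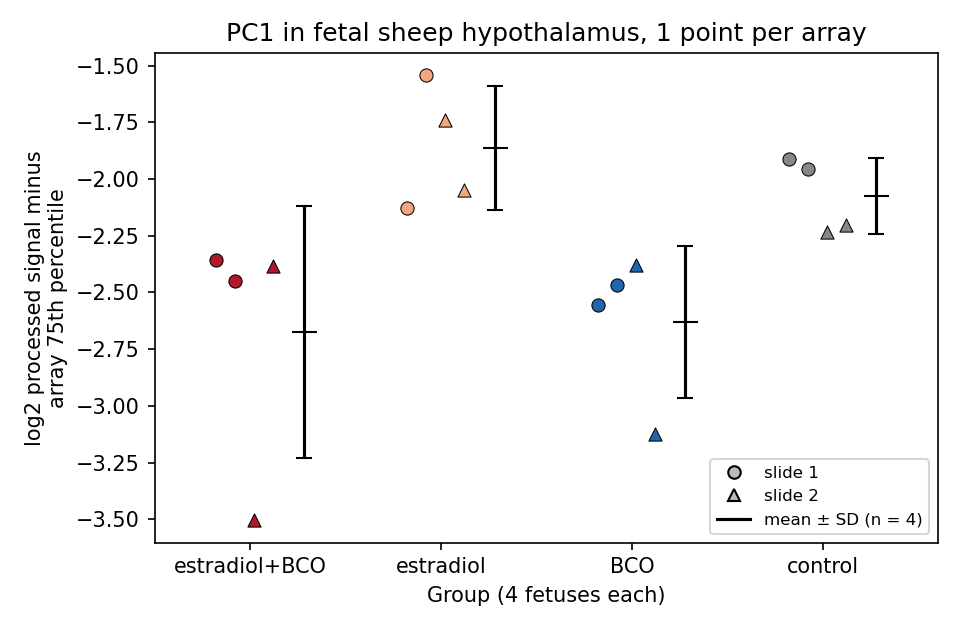
PC1 level on each of the 16 arrays by group (y axis: log2 processed signal minus the array's 75th percentile; circles are slide 1, triangles slide 2, bars the mean ± SD of 4 fetuses). All estradiol+BCO and BCO points lie at or below -2.36, and all estradiol and control points at or above -2.23.

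The group means put estradiol highest (-1.87 ± 0.27), then control (-2.08 ± 0.17), BCO (-2.63 ± 0.34) and estradiol+BCO (-2.67 ± 0.56; SD, n = 4 each). Between control and BCO the step of 0.56 exceeded the larger of their SDs. The step of 0.21 between estradiol and control did not, nor did the 0.04 between BCO and estradiol+BCO.

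Without estradiol, PC1 in occluded fetuses was 68.1% of the control level (BCO minus control, log2 fold change -0.56 ± 0.24 SE; 95% confidence interval 47.4% to 97.7%). It did not pass the test across all probes (limma adjusted p = 0.662). An exact permutation test of this value alone gave two-sided p = 0.0286, the smallest that 4 against 4 arrays allow. No array of one group overlapped the other, which was also so for 221 of 12940 tested probes in this direction (1.71%). The difference was -0.58 on slide 1 and -0.53 on slide 2. At an adjusted p under 0.05, limma called 0 of 12940 probes lower (0.0%) and 0 higher in this comparison, with 454 lower (3.51%) and 473 higher (3.66%) at an unadjusted p under 0.05. The exact permutation test across all probes called 0.

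After estradiol, PC1 in occluded fetuses was 57.1% of the estradiol level (estradiol+BCO minus estradiol, -0.81 ± 0.24 SE; interval 39.8% to 81.9%). This too missed the threshold (limma adjusted p = 0.431), while the exact permutation test gave its smallest possible two-sided p of 0.0286. The groups did not overlap, as for 2.77% of probes in this direction. The difference was -0.57 on slide 1 and -1.05 on slide 2, and it was -0.53 without estradiol+BCO replicate 3, against -0.81 with it. Limma called 1 probe of 12940 lower (0.00773%) in this comparison, and that probe was not PC1 or CPE.

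Averaged over both estradiol states, occluded fetuses had 62.3% of the PC1 level of sham fetuses (log2 fold change -0.68 ± 0.17 SE; interval 48.3% to 80.5%). PC1 ranked 36 of 12940 probes by p here, with a limma adjusted p of 0.467. An exact permutation test that reassigned occlusion within each estradiol state gave two-sided p = 0.000408, the smallest that its 4900 arrangements allow. Adjusted over all tested probes, this permutation p was 0.456. The test was added after the data had been seen, and arrays that separate wholly always give it its smallest p. PC1 was the 1 probe of 12940 (0.00773%) whose 8 occluded arrays all lay below all 8 sham arrays, while 4 unnamed probes (0.0309%) lay wholly above. These non-overlap counts were made after the PC1 values had been seen. Among this many probes, a count as small as 1 can arise without any effect of occlusion. The count therefore does not set PC1 apart. The PC1 separation was present under all 6 ways of scaling the arrays that were tried, unscaled signals included. These re-express the same readings, and the gap ran from 0.05 with median centring to 0.14 with normexp background correction. The averaged difference was -0.57 on slide 1 and -0.79 on slide 2. Without the lowest array of each occluded group it was -0.46, against -0.68 with them.

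No estradiol difference in PC1 passed a test. Estradiol minus control was 0.21 ± 0.24 SE (115.7% of control, interval 80.7% to 166.1%; limma adjusted p = 1.00). Among occluded fetuses, estradiol+BCO minus BCO was -0.04 ± 0.24 SE (97.1% of the BCO level, interval 67.7% to 139.3%; adjusted p = 0.975). The interaction, which asks whether estradiol altered the occlusion difference, was -0.25 ± 0.34 SE (interval -0.99 to 0.48; adjusted p = 0.948). With intervals this wide, 4 fetuses per group leave room for estradiol effects of either sign. Against untreated control fetuses, those given both treatments had 66.1% of the PC1 level (-0.60 ± 0.24 SE; adjusted p = 0.844), and again no array overlapped, as for 2.05% of probes in this direction. Without estradiol+BCO replicate 3 that difference was -0.32.

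CPE, the enzyme of the trimming step, did not show the occlusion split seen in PC1. From base 184, the estradiol+BCO arrays read 4.91, 5.16, 4.83 and 4.72 on the log2 scale, and the estradiol arrays 5.15, 5.14, 5.17 and 5.21. BCO arrays read 5.04, 5.31, 5.27 and 4.87, and control arrays 5.22, 5.03, 4.96 and 5.00. Occluded and sham arrays overlapped, and BCO fetuses held the highest value while estradiol+BCO fetuses held the lowest. The 4 estradiol arrays lay within 0.07 of each other, a narrower range than in any other group (0.25 to 0.44); this comparison of ranges was not tested.

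From base 183, the estradiol+BCO arrays read 4.93, 5.11, 4.59 and 4.67, and the estradiol arrays 5.19, 5.16, 5.11 and 5.14. BCO arrays read 4.93, 5.22, 5.26 and 4.79, and control arrays 5.15, 5.04, 4.81 and 4.93. The value from base 184 was the higher on 12 of 16 arrays, by 0.06 on average (-0.03 to 0.24), and over arrays the probes correlated at r = 0.94 (Pearson, 16 arrays, sharing RNA and nearly all bases). For both, the scanner software took all 16 values from a scan at lower gain and scaled them up. Neither was saturated on any array.

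**Figure D2:**
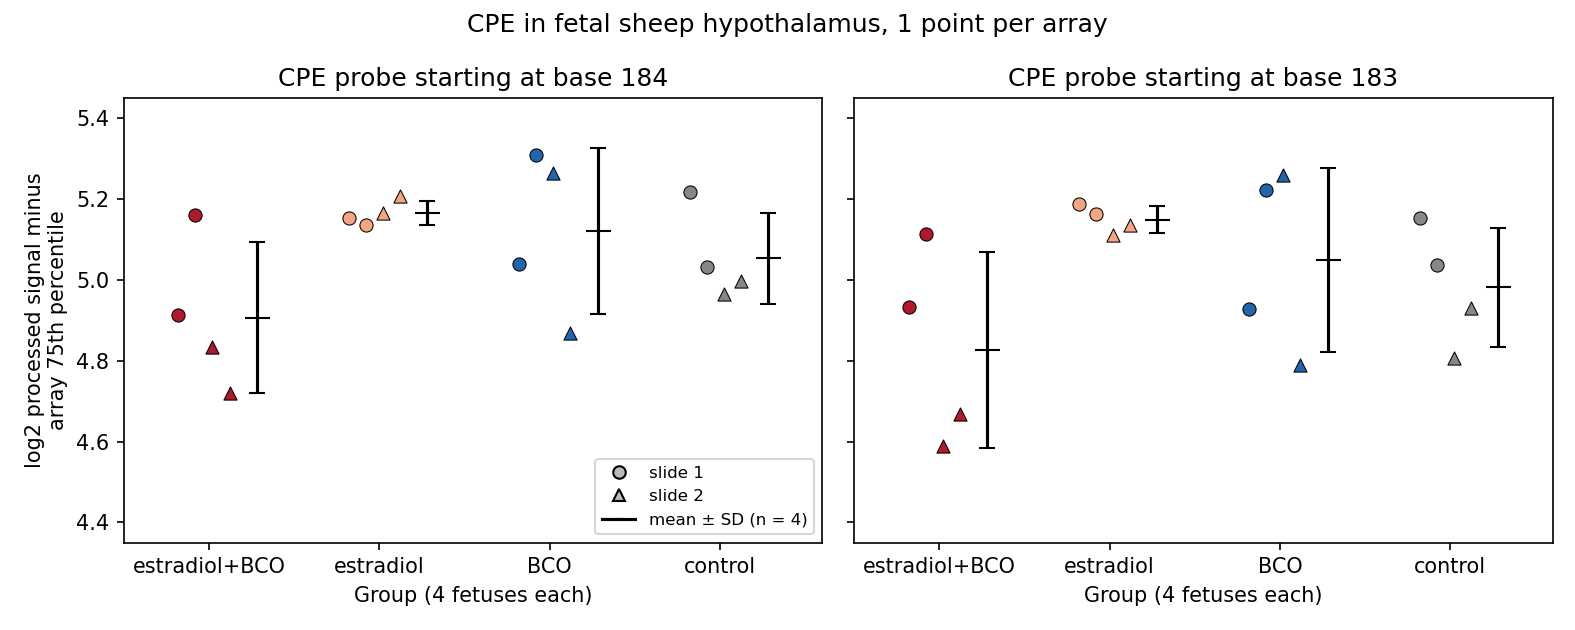
CPE level on each array by group for the 2 overlapping probes (y axis: log2 processed signal minus the array's 75th percentile; circles are slide 1, triangles slide 2, bars the mean ± SD of 4 fetuses). Groups overlap in both panels, though 3 of the 4 arrays of estradiol+BCO and likewise of control lie below every estradiol array. The estradiol arrays sit between 5.14 and 5.21 in the left panel and between 5.11 and 5.19 in the right.

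By group mean from base 184, estradiol was highest (5.17 ± 0.03), followed by BCO (5.12 ± 0.21), control (5.05 ± 0.11) and estradiol+BCO (4.91 ± 0.19; SD, n = 4 each). No neighbouring pair in that order differed by more than the larger of its SDs, and the same order and outcome held from base 183.

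The difference with the lowest p for CPE was that between occluded and sham fetuses after estradiol. CPE was 83.6% of the estradiol level in estradiol+BCO fetuses from base 184 (-0.26 ± 0.12 SE; interval 70.5% to 99.2%; limma adjusted p = 0.620), and 79.9% from base 183 (-0.32 ± 0.13 SE; adjusted p = 0.604). The exact permutation test gave two-sided p = 0.0857 and 0.0571. On slide 1 the difference was -0.11 from base 184 and -0.15 from base 183, and on slide 2 it was -0.41 and -0.50.

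Without estradiol, the CPE difference between BCO and control fetuses was 0.07 ± 0.12 SE from base 184 (104.8% of control, interval 88.3% to 124.3%; adjusted p = 0.988). Averaged over estradiol states, occluded fetuses had 93.6% of the sham level (-0.10 ± 0.08 SE; interval 82.9% to 105.6%; adjusted p = 0.843). Estradiol minus control was 0.11 ± 0.12 SE (adjusted p = 1.00), and estradiol+BCO minus BCO was -0.21 ± 0.12 SE (adjusted p = 0.579). The interaction was -0.33 ± 0.16 SE from base 184 (adjusted p = 0.725) and -0.39 ± 0.19 SE from base 183 (adjusted p = 0.716), so a different occlusion response with and without estradiol was not shown for CPE.

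**Figure D3:**
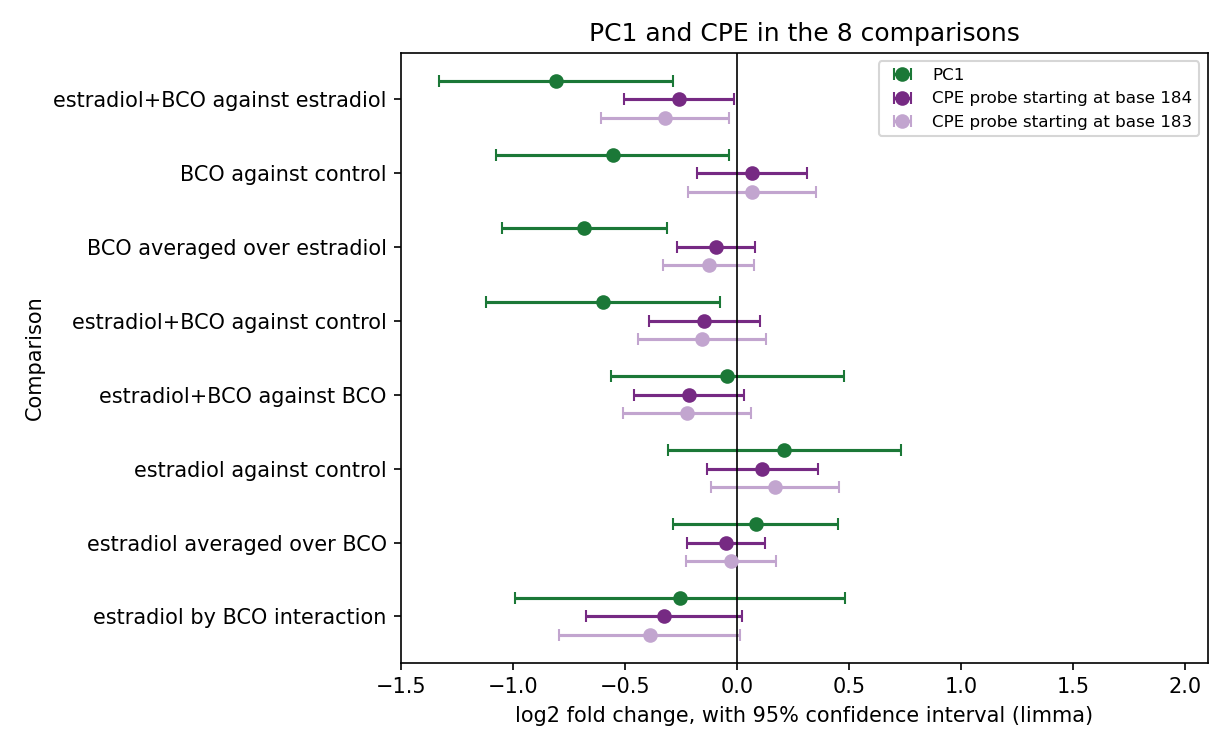
Log2 fold change of PC1 and of both CPE probes in the 8 comparisons, with 95% confidence intervals from limma. The PC1 intervals in the 4 comparisons that set occluded against sham fetuses lie below 0, as do both CPE intervals for estradiol+BCO against estradiol, while none of the 24 differences passed at an adjusted p under 0.05.

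Other enzymes of the same route gave little to set beside PC1. Of 28 genes listed for prohormone cleavage and trimming, 7 were measured, and 5 of these could be tested. A gene counted as measured where a probe could be given its name. Of the 15008 distinct probes 1585 were named and 13423 were not, so a gene not measured may still have an unnamed probe. FURIN, the general convertase of the secretory pathway, and ACE, the angiotensin-converting enzyme, were each well above background on 2 arrays and stayed out of the test. Besides PC1 and CPE the tested genes were QPCT, which cyclizes amino-terminal glutamine, CTSB, a lysosomal cysteine protease, and ECE1, the endothelin-converting enzyme. Their 6 log2 differences in the occlusion comparisons without and with estradiol lay between -0.08 and 0.06. For the 5 tested genes the median was 0.04 in BCO against control (0.01 over all probes) and -0.08 in estradiol+BCO against estradiol (-0.01 over all probes), and 0 were called in either. The other listed convertases and PAM, the amidating enzyme, had no probe that could be given their name, so no values are given for them. Of 18 secretory granule genes 1 was measured, ATP6V1B2, a subunit of the proton pump that acidifies granules, at 0.12 in BCO against control and -0.30 in estradiol+BCO against estradiol; it was not called.

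Most measured precursors of peptides and hormones, some of them processed by PC1 and CPE, had a lower mean after occlusion alone, though none passed the test. Of 30 listed peptide and hormone precursors 16 were measured and tested. In BCO against control 14 had a lower and 2 a higher mean, 10 of the lower at an unadjusted p under 0.05 (3.51% of all probes). The median of the 16 was -1.43 on the log2 scale against 0.01 over all probes. These counts and this median include GHRH, which lay below the background mark on all BCO arrays. In estradiol+BCO against estradiol 11 were lower and 5 higher, and the median was -0.14 against -0.01 over all probes. In estradiol+BCO against BCO 4 were lower and 12 higher, again with GHRH included, with a median of 0.81 against -0.02. PC1 stood at -0.56, -0.81 and -0.04 in these 3 comparisons. The first of them shares its BCO arrays with the third, and the second its estradiol+BCO arrays with the third.

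After estradiol the estimates for single precursors did not all have the same sign, and no test compared precursors with one another. POMC, the source of ACTH and of melanocortins, was at -1.54 ± 0.51 SE in BCO against control (limma adjusted p = 0.511) and -0.89 ± 0.51 in estradiol+BCO against estradiol (0.713). NPY, a peptide that drives feeding, was at -1.70 ± 0.78 (0.681) and -1.44 ± 0.78 (0.692) in the same order. SST, which restrains growth hormone release, was at -1.32 ± 0.41 (0.493) and -0.10 ± 0.41 (0.990). OXT, the precursor of oxytocin, was at -2.71 ± 0.90 (0.510) and 1.64 ± 0.90 (0.699), and TAC3, the precursor of neurokinin B, at -1.06 ± 0.41 (0.601) and -1.09 ± 0.41 (0.572). The second TAC3 value was -0.57 without estradiol replicate 2, which stood far above its group. OXT had opposite signs in the 2 comparisons, and none of these differences was called.

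Of the 3 precursors with the lowest p in BCO against control, GAL, the galanin precursor, was at -2.82 ± 0.56 SE and AGRP, the appetite-stimulating agouti-related peptide of the arcuate nucleus, at -4.80 ± 1.23 SE (adjusted p = 0.466 for both). GHRH, the growth hormone-releasing hormone precursor, was the third but lay below the background mark on all BCO arrays, so it has no measured level in that group. In estradiol+BCO against estradiol, ADCYAP1, the precursor of the peptide PACAP, was at -0.96 ± 0.47 SE (adjusted p = 0.661).

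**Figure D4:**
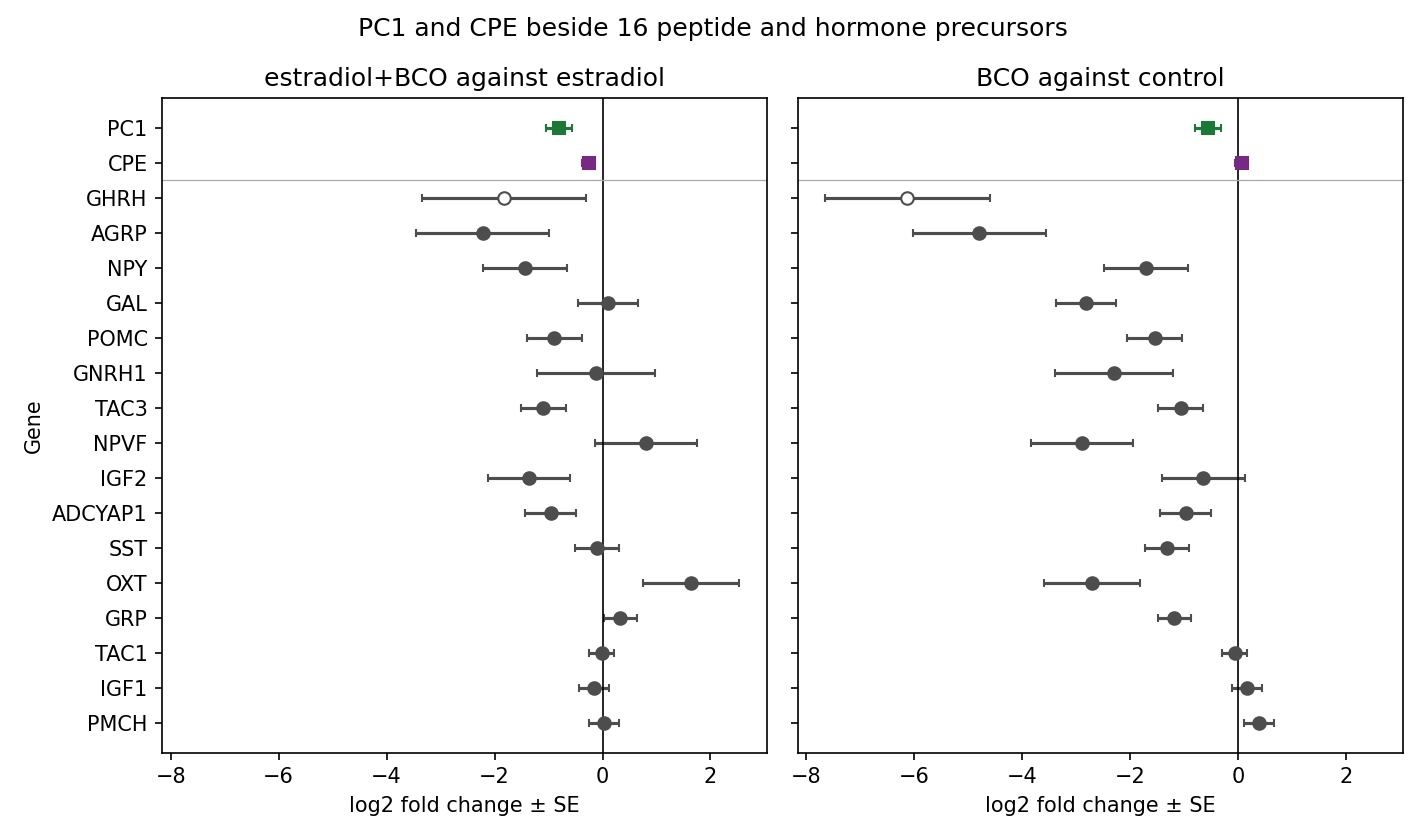
Log2 fold change ± SE of PC1, CPE (from base 184) and 16 precursors in the occlusion comparison with estradiol (left) and without it (right). PC1 lies at -0.81 and -0.56; the open circle marks GHRH, which no BCO array showed well above background, so its right-hand value is not a measured level.

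Markers of hypothalamic neurons are given beside PC1, and 0 of them were called in either comparison. All 6 measured markers had a lower mean in BCO than in control fetuses, with a median of -1.86. NR5A1 lay below the background mark on all BCO arrays, so that count and median include a marker without a measured level there. In estradiol+BCO against estradiol fetuses 5 of the 6 had a lower mean, with a median of -0.29. Of the 6, 3 are precursors counted above. The summed level of the 6, as log2, was 3.09 to 3.58 on estradiol+BCO arrays and 2.21 to 3.16 on estradiol arrays. It was -0.33 to 1.86 on BCO arrays and 2.46 to 3.00 on control arrays. OXT was the 1 marker with a higher mean in estradiol+BCO than in estradiol fetuses, and it alone read 2.33 to 3.48 on the estradiol+BCO arrays, where the sum therefore says little of the other 5. Anterior pituitary markers, of which 7 of 9 were measured, summed to 1.96 to 2.72 on estradiol+BCO, 2.18 to 3.87 on estradiol, 1.90 to 2.58 on BCO and 1.96 to 2.92 on control arrays. The hormone subunit LHB, with a mean of 2.28 on the estradiol+BCO arrays, weighs heavily in those sums, which do not show the differences of other markers. Of the 5 tested pituitary markers, 2 had a lower and 3 a higher mean in estradiol+BCO against estradiol, with a median of 0.007. In BCO against control all 5 were lower, with a median of -0.66, and 0 were called in either comparison. CGA, the shared subunit of the glycoprotein hormones, was at -4.76 ± 2.15 SE in estradiol+BCO against estradiol (limma adjusted p = 0.634) and -3.08 ± 2.15 SE in BCO against control (0.838), and PRL, prolactin, at -2.26 ± 1.04 SE in BCO against control (0.692); both were chosen after their values were seen. The PRL difference rests largely on control replicate 4, at 1.12, while the other control arrays read -3.82 to -3.47. CGA read 3.44 on estradiol replicate 2 and -0.006 on BCO replicate 1, each the highest array of its group. The part of tissue composition in the PC1 difference was not tested. In whole hypothalamus, fewer cells of a type and less RNA per cell cannot be told apart.

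Array by array, the arcuate peptide AGRP lay on the same side as PC1 within each slide. On slide 1 it read -3.33 and -1.47 on estradiol+BCO arrays, against -0.16 and 0.91 on estradiol arrays, and on slide 2 it read -6.58 and -5.82, against -4.18 and -4.89. On both slides the estradiol+BCO arrays were the lower ones for AGRP and for PC1, and likewise for POMC, NPY and TAC3. OXT went the other way on both slides, at 2.77 and 2.33 against 0.53 and 1.26 on slide 1. On slide 2 OXT read 3.06 and 3.48 against 1.60 and 1.69. The SST and GAL arrays of these groups overlapped on both slides, and those of ADCYAP1 on slide 1. These readings by array were not tested, and the share of all probes ordered in this way was not counted. With 2 arrays against 2 on each slide, many probes can take such an order without any effect.

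Beside the CPE values, markers of astrocytes and other cells were set for the same comparison. All 5 measured astrocyte markers had a lower mean in estradiol+BCO than in estradiol fetuses, with a median of -0.34, and 3 of them at an unadjusted p under 0.05 (4.28% of all probes). The summed level was 5.61 to 6.12 on estradiol+BCO arrays and 5.90 to 6.16 on estradiol arrays. The marker AQP4 weighs heavily in that sum, with means of 5.702 and 5.745 in these groups. AQP4 differed by only -0.04 here, so the sum says little of the other markers. In BCO against control 4 of the 5 markers were higher and 1, AQP4 at -0.37, lower, with a median of 0.24. All 3 measured fibroblast and meningeal markers were lower in estradiol+BCO than in estradiol fetuses (median -0.53, 2 of them at an unadjusted p under 0.05), as were 2 of 3 endothelial markers (median of the 3 -0.32, both of the lower at an unadjusted p under 0.05). Of 2 measured microglia and leukocyte markers, 1 was lower and 1 higher in that comparison, with a median of -0.06. In BCO against control the medians were -0.02 for fibroblast and meningeal, 0.015 for endothelial and -0.24 for microglia and leukocyte markers. None of these markers was called, and the part of these cells in the CPE difference was not tested.

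The named gene most like PC1 over the 16 arrays was TAC3. Among 862 named genes its Pearson r with PC1 was 0.85, and 0.71 once group means were removed. Also among the most alike were complement component C3 at 0.78, the axon guidance ligand SLIT2 at 0.77 and the guidance receptor neuropilin-1 at 0.73. TAC3 read -2.67, -2.82, -3.53 and -2.44 on the estradiol+BCO arrays and -2.41, -0.21, -2.15 and -2.33 on the estradiol arrays. It read -3.08, -3.31, -2.69 and -3.61 on BCO arrays and -1.69, -2.01, -2.25 and -2.51 on control arrays. The arrays with the lowest PC1, estradiol+BCO replicate 3 and BCO replicate 4, were also the lowest for TAC3, and estradiol replicate 2 was the highest for both. For neuropilin-1 the r was 0.01 on slide 1 and 0.88 on slide 2.

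The genes most like CPE were others: the growth factor receptor FGFR1 (r = 0.84), DKC1, a protein of small nucleolar ribonucleoproteins (0.84), glutamate dehydrogenase GLUD1 (0.83), the astrocyte glutamate transporter SLC1A2 (0.83) and the translation factor EIF3A (0.79). These r are descriptions over arrays that share slides and treatment groups, chosen as the highest of 862, and carry no test.

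Correlations over arrays were tested for 9 relations, PC1 with CPE and each enzyme with POMC, OXT, NPY and SST, and 0 passed after Benjamini-Hochberg adjustment; with CPE read from base 183, 3 of the 9 passed by Pearson r (PC1 with CPE, SST and NPY) and 0 by Spearman rho. PC1 and CPE gave Pearson r = 0.50 (permutation p = 0.0473, adjusted 0.106) and Spearman rho = 0.35 (p = 0.179, adjusted 0.268) over 16 arrays. It was 0.07 on slide 1, 0.58 on slide 2 and 0.44 within groups. Without the 2 arrays farthest from the median of PC1 it was 0.20, so the relation rests on those arrays.

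Of the precursors, SST gave the highest r with PC1 at 0.64 (permutation p = 0.00808, adjusted 0.0725; rho = 0.52, p = 0.0414, adjusted 0.124). It was 0.47 on slide 1, 0.66 on slide 2 and 0.70 within groups, and 0.35 without the 2 farthest arrays, on which it thus rests. NPY followed at r = 0.58 (permutation p = 0.0161, adjusted 0.0725; rho = 0.52, p = 0.0397, adjusted 0.124), with 0.71 and 0.44 on the slides, 0.40 without the 2 arrays and 0.29 within groups. For POMC r was 0.52 (permutation p = 0.0361, adjusted 0.106; rho = 0.63, p = 0.0106, adjusted 0.0954), with 0.58 and 0.42 on the slides, 0.43 without the 2 arrays and 0.12 within groups. For OXT it was 0.18 (permutation p = 0.515, adjusted 0.579; rho = 0.02, p = 0.952, adjusted 0.952).

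CPE gave r of 0.30 with POMC, -0.32 with OXT, 0.44 with NPY and 0.01 with SST. Their adjusted permutation p-values were 0.325, 0.325, 0.159 and 0.985, with rho of 0.16, -0.47, 0.38 and -0.09 (adjusted 0.706, 0.158, 0.268 and 0.831).

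**Figure D5:**
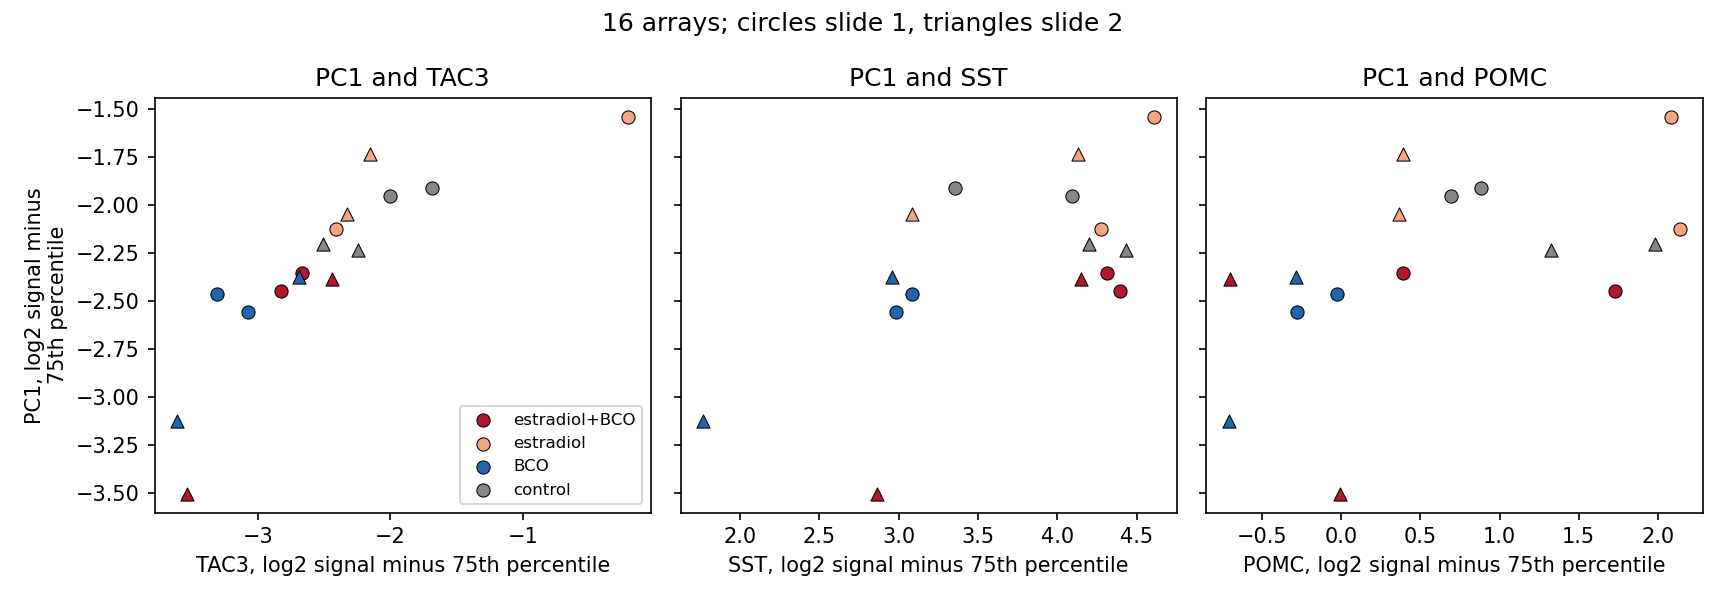
PC1 (y axis) against TAC3, SST and POMC (x axes) on the 16 arrays, each as log2 processed signal minus the array's 75th percentile, coloured by group; circles are slide 1 and triangles slide 2. The 2 lowest PC1 arrays are also the lowest for SST and TAC3; for POMC, BCO replicate 4 is the lowest of all arrays but estradiol+BCO replicate 3 lies higher, and r within groups was 0.12.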

How the data were processed

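Hypothalamic total RNA (500 ng, RNA integrity numbers 7.4 to 8.4, per the labels) was labelled with Cy3 and hybridized, 1 fetus per array. Per the file headers, Feature Extraction 10.1.1.1 produced the deposited processed signal, an intensity after background correction, and spot flags of other kinds. The deposited series table holds log2 values centred on each array's median and served as an alternative. Outlier spots (2 to 36 per array) were set to missing, and spots of 1 probe were averaged. The log2 signal minus the array's 75th percentile (over the 15008 distinct probes) was fitted with limma 3.58.1 in R 4.3.3 over 16 arrays and 4 groups. Tested were 12940 probes well above background on at least 4 arrays; 2068 were left out. P-values were adjusted by Benjamini-Hochberg over these in each of 8 comparisons and called under 0.05. Exact permutation tests used 70 splits, correlations 100000 permutations. Genes with several probes were represented by the brightest. Names came from the files, updated through a RefSeq gene table. Named were all PC1 and CPE probes, measured cleavage enzymes, the 3 precursors with the lowest p in a comparison, POMC, OXT, NPY and SST, and the 5 genes most like each enzyme, 1 of which is not reported here. Members and lists were chosen with earlier results of these data known. The number of arrays limits precision. Alternatives covered scaling, background correction, the dim-probe filter, slide, replicate block and single arrays left out.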

Additional observations from a re-analysis of the deposited data

Results flagged for a closer look

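PC1 on estradiol+BCO replicate 3 was -3.51, far below the other 3 arrays of its group, which lay between -2.45 and -2.36. SST on the same array was 2.86, below the next array of its group at 4.15, and SST on BCO replicate 4 was 1.77, below the next at 2.96. TAC3 on estradiol replicate 2 was -0.21, above the next array of its group at -2.15. ADCYAP1 on BCO replicate 2 was 1.09, below the next at 3.34, and on control replicate 4 it was 4.41, above the next at 3.67. CGA on BCO replicate 1 was -0.006, above the next at -6.52, and PRL on control replicate 4 was 1.12, above the next at -3.47. Each stood apart from its group of 4 by Dixon's test at the 95% level. Chance gives about 1 such array in 20 groups, and 52 groups were screened.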

How the results depend on the processing

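PC1 kept its direction in BCO against control, estradiol+BCO against estradiol and the average over both under all 30 alternatives run for each, with averaged differences of -0.79 to -0.46, and neither PC1 nor CPE was called under any of them (lowest adjusted p 0.240). Differences near 0 changed sign. PC1 in estradiol+BCO against BCO was 0.002 after quantile normalization, 0.11 on slide 1 alone and -0.21 to 0.23 with 1 array left out; its interaction was 0.011 on slide 1 and -0.42 to 0.023 with 1 array left out. From base 183, CPE was -0.02 on slide 1 in BCO against control (-0.002 to 0.16 with 1 array left out) and 0.014 on slide 1 for estradiol averaged over BCO (-0.076 to 0.011). SST in estradiol+BCO against estradiol ranged over -0.41 to 0.26 with 1 array left out, at 0.26 without estradiol+BCO replicate 3 and 0.10 without estradiol replicate 2. AGRP in BCO against control was called on slide 2 alone (-5.42, limma adjusted p = 0.0237) and with those groups fitted alone (adjusted p = 0.00469).

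Counts of called probes, 0 or 1 as reported, moved as follows. BCO against control gave 14 on slide 2, 3 with the groups alone and 0 to 6 with 1 array left out (6 without BCO replicate 2). Estradiol+BCO against estradiol gave 0 after median centring, on either slide, with the replicate block, with the deposited log2 table, with the groups alone and by exact permutation, and 0 to 1 with 1 array left out. On slide 2 estradiol against control gave 1, estradiol+BCO against BCO 14 and estradiol+BCO against control 3; with 1 array left out, the second gave 0 to 5 (5 without BCO replicate 1, 3 without BCO replicate 2). Estradiol averaged gave 1 on slide 1 and 0 to 1 with 1 array left out. The interaction gave 0 after quantile normalization or median centring, without a filter, on either slide and with the log2 table, 3 with slide or the replicate block, and 0 to 3 with 1 array left out (3 without BCO replicate 1).

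The correlation of PC1 with CPE was 0.64 with the CPE probe from base 183 (permutation, adjusted p = 0.0364); adjusted in that family, those with SST (0.639, adjusted p = 0.0364) and NPY (0.579, adjusted p = 0.0483) passed too. PC1 with SST was 0.68 after quantile normalization (adjusted p = 0.0364) and 0.70 within groups (adjusted p = 0.0301). CPE with OXT was 0.003 within groups. CPE with SST was -0.15 with normexp, -0.34 and -0.005 on the slides and -0.016 without the 2 farthest arrays. The cause of these changes was not tested. Same-numbered arrays of different groups correlated at -0.02 to 0.28, over 0.1 in 20 of 24 pairs, and 3 of 16 arrays correlated best with their own number, so the numbers were not taken as pairs. Alternatives added after seeing the data were the permutation within estradiol states, unscaled signals, leaving out the lowest occluded arrays and the settings for gene likeness.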
